A study of Mus musculus with 12 samples.

Results

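The 9 genes described here encode the enzymes that make and degrade polyamines and the proteins that set the amount of the first enzyme. They were picked by symbol from a count table of 23420 genes measured in 12 mouse kidneys: Odc1, Azin1, Oaz1, Amd1, Srm and Sms for synthesis, and Sat1, Smox and Paox for breakdown. Of the 9 genes, 7 had counts and were tested, and 2 (Oaz1 and Amd1) are listed at 0 in every kidney. The kidneys came from male C57BL/6J mice, which are adult at the ages given in the methods. There were 4 control kidneys, taken at nephrectomy according to the methods, and 8 kidneys taken after renal ischemia, induced by clamping the pedicle, and 24 h of reperfusion, some in conscious and some in anaesthetised mice. The labels give 20 min of ischemia for all 12 kidneys, controls included. The labels of the 8 ischemic kidneys disagree. For 4 kidneys, called ischemia A, the title says anaesthesia and the group field says conscious, for the other 4, called ischemia B, it is the reverse, and no direction is given to anaesthesia. The study gives no mouse for each control kidney, so whether a control and an ischemic kidney came from the same animal is not known here. In the methods, the clamp was placed by surgery with anaesthesia and buprenorphine, which could include removal of the right kidney. The controls are called normal there, although the paper's results mention sham surgery. Ischemia, surgery, its drugs and loss of the other kidney therefore cannot be told apart in the comparisons with controls.

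Polyamines (putrescine, spermidine and spermine) are small positively charged molecules that bind nucleic acids and are needed for growth and translation. Ornithine decarboxylase (Odc1) makes putrescine from ornithine, and the spermidine and spermine synthases (Srm and Sms) lengthen it with aminopropyl groups that S-adenosylmethionine decarboxylase (Amd1) makes available. Antizyme (Oaz1) binds ornithine decarboxylase and sends it to the proteasome, and the antizyme inhibitor (Azin1) captures antizyme. Breakdown runs through the acetyltransferase Sat1 followed by the acetylpolyamine oxidase Paox, or directly through spermine oxidase (Smox), and both oxidases release hydrogen peroxide. In male mouse kidney, ornithine decarboxylase is known as an enzyme of the proximal tubule that androgens induce.

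Ischemia was accompanied by lower Odc1 and higher Smox in both ischemia groups, each without overlap with the controls. Odc1 was about 3-fold lower, and Smox was 8.42-fold higher in ischemia A and 6.74-fold higher in ischemia B. Srm passed the test, higher, in ischemia A but not in ischemia B, and it lost that call when any 1 of 6 kidneys was left out. No member passed the test between the ischemia groups, where 0.00857% of all genes tested did. Azin1, Sms and Sat1 did not pass the test in either ischemia group, and Paox, low in the controls, had no count in any ischemia A kidney.

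Sequence before a RefSeq start is shown for 3 of these genes. Odc1, which was lower, and Smox, which was higher, had the clearest changes. The acetyltransferase gene Sat1 did not pass the test in either ischemia group. The sequences are those of RefSeq on GRCm38.p6, read 5′ to 3′ on the strand of the gene, without annotated exon bases. Capitals mark a GC box (GGGCGG on either strand). The Odc1 stretch is chr12:17544623-17544793 (plus strand), the Smox stretch is chr2:131491654-131491763 (plus strand), and the Sat1 stretch is chrX:155216450-155216699 (minus strand). The Smox stretch lies before the RefSeq start used here but inside the span of the gene in GENCODE, after its first annotated start and outside its exons.
Odc1: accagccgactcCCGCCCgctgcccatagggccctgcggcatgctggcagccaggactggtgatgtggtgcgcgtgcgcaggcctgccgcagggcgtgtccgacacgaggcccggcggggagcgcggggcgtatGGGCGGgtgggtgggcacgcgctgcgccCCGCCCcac
Smox: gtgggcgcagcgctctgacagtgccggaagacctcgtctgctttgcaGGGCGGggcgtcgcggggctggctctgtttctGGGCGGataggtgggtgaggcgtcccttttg
Sat1: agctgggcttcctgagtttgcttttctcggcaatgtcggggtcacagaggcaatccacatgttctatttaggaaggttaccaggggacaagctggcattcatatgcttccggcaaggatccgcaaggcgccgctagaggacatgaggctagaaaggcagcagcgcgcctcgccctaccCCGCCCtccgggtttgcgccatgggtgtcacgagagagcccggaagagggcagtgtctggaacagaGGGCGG

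In the whole window of 250 bases before the start, Odc1 held 4 GC boxes at a GC content of 80.0%, Smox held 6 at 68.0% and Sat1 held 2 at 59.6%. The median GC content of all 32851 promoters was 52.4%, and 32.7% of them held a GC box. None of these 3 windows held an E-box (CACGTG, in 6.02% of all promoters), a TATA box (TATAAA, in 12.4%), a CCAAT box (CCAAT, in 33.8%) or a cyclic AMP response element (TGACGTCA, in 1.55%), on either strand. An E-box, the letters that Myc and Max bind, was found for 1 of the 2 starts of Sms, 196 bases before it. A match is a description of the letters. Promoter entries were matched for 7 of the 9 genes, and Azin1 and Srm had none.

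Levels are given as CPM (the count of a gene scaled to the total of the library and its TMM factor), and the comparisons are log2 fold changes with their standard error (SE). Total counts lay between 15367342 and 44793350 per kidney, and the TMM factors lay between 0.968 and 1.03. Of 11664 genes tested, 1229 were higher in ischemia A than in controls and 1370 lower, 1269 were higher in ischemia B and 1390 lower, and 1 gene, the proximal tubule carrier Slc5a12, was higher in ischemia B than in ischemia A, at an adjusted p under 0.05. As a check of the tissue, all 10 proximal tubule markers were detected, with a summed level of 8560 to 9529 CPM in the controls, 1320 to 2209 CPM in ischemia A and 742 to 2231 CPM in ischemia B. In whole tissue, fewer cells of a type and less RNA per cell cannot be told apart.

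**Figure D1:**
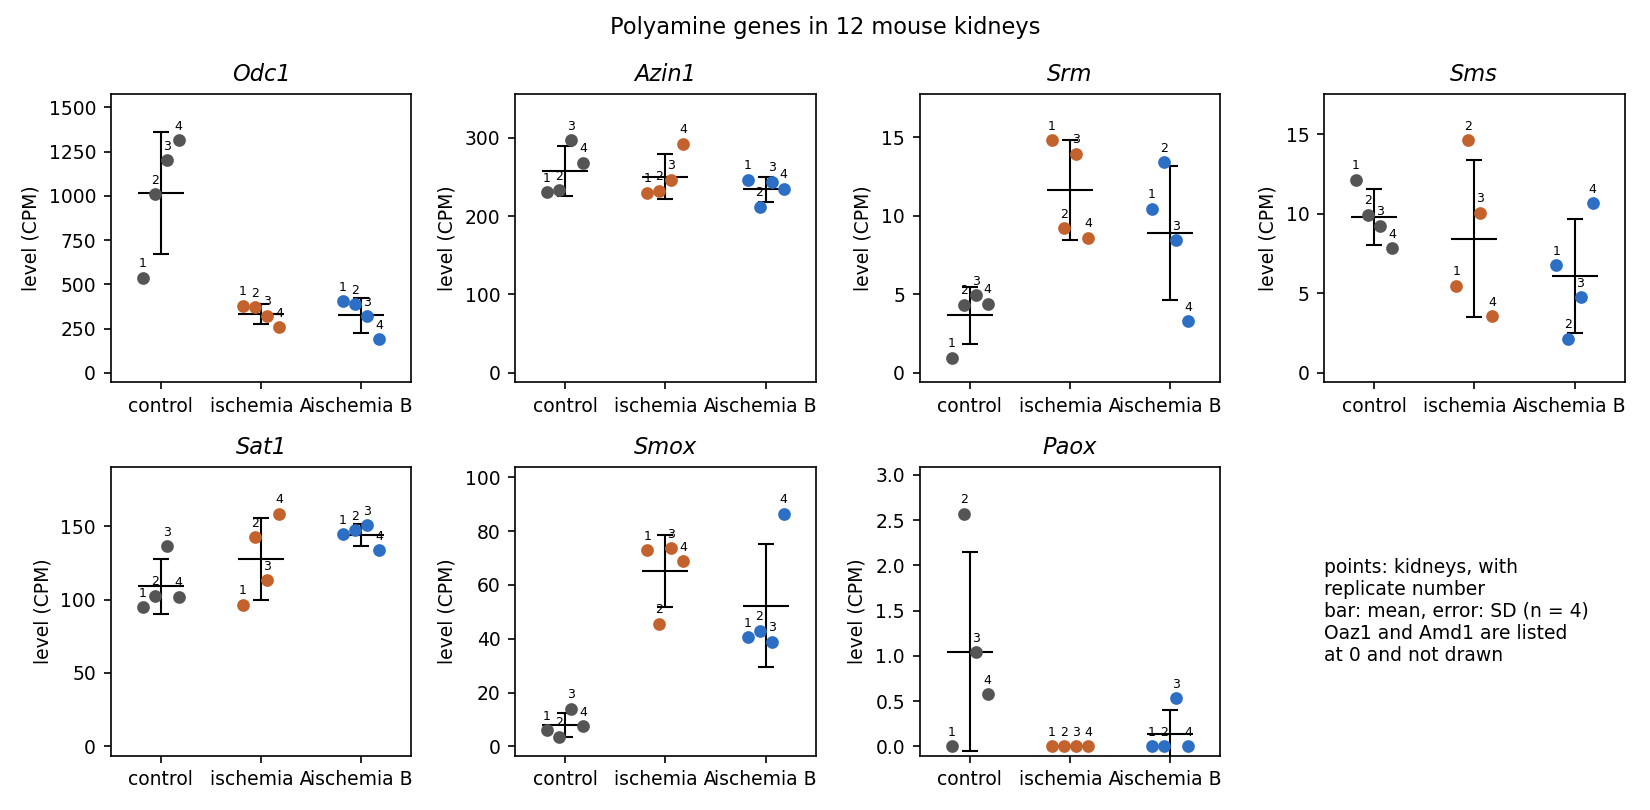
Level in CPM (vertical axes, each from 0) of the 7 polyamine genes with counts in each of 12 kidneys, by group, with the mean and SD of 4 kidneys. Odc1 lay between 538.1 and 1315 CPM in controls and between 188.4 and 403.9 CPM in the ischemic kidneys, and Smox lay between 3.56 and 14.0 CPM in controls and between 38.8 and 86.5 CPM in the ischemic kidneys.

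Odc1 (ornithine decarboxylase, chr12:17544794-17551505, plus strand) had the highest level per length of the genes with counts. In the 4 controls it measured 538.1, 1011, 1200 and 1315 CPM. Ischemia A measured 379.3, 372.4, 323.5 and 257.9 CPM. Ischemia B measured 403.9, 387.2, 318.9 and 188.4 CPM. Control replicate 1 was low for its group, yet it lay above all 8 ischemic kidneys. The means were 1016 ± 342 CPM (SD, n = 4) in controls, 333 ± 56.1 CPM in ischemia A and 325 ± 97.9 CPM in ischemia B. The log2 fold change was -1.61 (SE 0.24, 95% interval -2.11 to -1.10) in ischemia A, a 3.05-fold lower level, with an adjusted p of 4.83e-05 (edgeR, quasi-likelihood test, Benjamini-Hochberg adjustment). In ischemia B it was -1.65 (SE 0.24, interval -2.15 to -1.14), a 3.13-fold lower level, with an adjusted p of 3.80e-05 in the same edgeR test. The exact permutation test of mean CPM gave p = 0.0286 in both ischemia groups, two-sided, the smallest value that 4 kidneys against 4 allow. Over the 18 alternative settings and left-out kidneys, the log2 fold change stayed between -1.81 and -1.45 in ischemia A and between -1.86 and -1.46 in ischemia B, past the threshold each time.

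Odc1 and markers of the cells that are known to make it were both lower after ischemia than in controls. Within the controls, replicate 1 had the lowest Odc1 (538.1 CPM) but not the lowest sum of proximal tubule markers. That sum was 8695 CPM in replicate 1 and 8560 CPM in replicate 3, where Odc1 was at 1200 CPM. All 10 proximal tubule markers were lower in each ischemia group, with a median log2 fold change of -2.48 in ischemia A and -2.26 in ischemia B, against -0.02 over all genes tested in each comparison. Of 5 genes known to be induced by androgens in male mouse kidney, 4 were lower in ischemia A and 3 in ischemia B (medians -3.15 and -3.09), where 11.7% and 11.9% of all genes tested were lower. Their summed level was 3358 to 4816 CPM in controls, 379 to 709 CPM in ischemia A and 310.1 to 687.0 CPM in ischemia B, most of it from Cyp4b1 (3849 ± 554 CPM in controls, 501 ± 131 CPM in ischemia A and 451 ± 155 CPM in ischemia B). Gusb, at most 4.71 CPM, did not pass in either. Of 6 markers of other tubule segments, 3 were lower in ischemia A and 2 in ischemia B. The part of any of these lists in the result for Odc1 was not tested.

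The antizyme inhibitor, which shields ornithine decarboxylase from antizyme, showed no such fall. Azin1 (chr15:38487427-38519266, minus strand) measured 230.2, 233.2, 296.9 and 268.0 CPM in controls. It measured 229.8, 232.4, 246.2 and 292.2 CPM in ischemia A and 246.1, 211.8, 244.0 and 234.9 CPM in ischemia B. The 3 ranges overlapped. Its log2 fold change was -0.04 (95% interval -0.31 to 0.23, edgeR adjusted p = 0.904) in ischemia A and -0.13 (interval -0.40 to 0.13, adjusted p = 0.551) in ischemia B. Neither interval reached those of Odc1. Exons of an antisense gene, Gm49077, overlap Azin1 on the other strand. The strand setting of the counting is not given in the sources used here, so part of these counts may be of that gene.

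Oaz1 (antizyme, chr10:80826656-80829290, plus strand) is listed at 0 in all 12 kidneys, as is Amd1 (chr10:40287458-40302186, minus strand), whose enzyme supplies the aminopropyl donor. Genes that every cell uses are at 0 too, among them the ribosomal protein genes Rpl26, Rpl30 and Rpl34, and so are the close copies Oaz1-ps and Amd2. The zeros are therefore given as listed, and no level or change is read from them. How the counting treated reads that match several places is not given in the sources used here. The paralog Oaz2, which encodes a second antizyme, measured 265 ± 36.7 CPM in controls, 154 ± 26.1 CPM in ischemia A and 144 ± 7.92 CPM in ischemia B. It was 1.72-fold lower in ischemia A (log2 fold change -0.78, SE 0.14, edgeR adjusted p = 0.000367) and 1.85-fold lower in ischemia B (-0.89, SE 0.14, adjusted p = 0.000108).

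Srm (spermidine synthase, chr4:148591503-148594993, plus strand) was low in the controls, with 0.959, 4.34, 4.94 and 4.41 CPM from 20 to 169 counts. Ischemia A measured 14.8, 9.20, 13.9 and 8.61 CPM. Ischemia B measured 10.4, 13.4, 8.46 and 3.30 CPM. All 4 ischemia A kidneys lay above every control, whereas ischemia B replicate 4 lay inside the range of the controls. Srm was 3.17-fold higher in ischemia A (log2 fold change 1.66, SE 0.55, interval 0.50 to 2.83, edgeR adjusted p = 0.0361), with an exact permutation p of 0.0286. In ischemia B the log2 fold change was 1.28 (SE 0.55, interval 0.13 to 2.43), with an edgeR adjusted p of 0.109, an unadjusted p of 0.0316 and an exact permutation p of 0.114. The test of ischemia B against ischemia A did not pass for Srm (log2 fold change -0.39, interval -1.52 to 0.74), so the call in ischemia A alone is not shown to be a difference between them.

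The call for Srm in ischemia A was not stable. In edgeR it was lost when control replicate 1 (log2 fold change 1.36, adjusted p = 0.0837), control replicate 2 (1.76, adjusted p = 0.0599) or control replicate 4 (1.78, adjusted p = 0.0589) was left out. It was also lost in edgeR without replicate 1 of ischemia A (1.55, adjusted p = 0.0955), replicate 3 of ischemia A (1.58, adjusted p = 0.0965) or replicate 1 of ischemia B (1.65, adjusted p = 0.0526). In ischemia B, Srm passed the threshold when replicate 4 of that group was left out (1.55, edgeR adjusted p = 0.0393). The direction was higher after ischemia in each of these fits.

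Sms (spermine synthase, chrX:157443855-157492287, minus strand) measured 12.1, 9.95, 9.26 and 7.84 CPM in controls. It measured 5.49, 14.6, 10.1 and 3.55 CPM in ischemia A and 6.77, 2.15, 4.74 and 10.7 CPM in ischemia B. The ischemic kidneys spread more widely than the controls and overlapped them in both ischemia groups. The log2 fold change was -0.21 (interval -1.34 to 0.91, edgeR adjusted p = 0.872) in ischemia A and -0.69 (interval -1.82 to 0.45, adjusted p = 0.447) in ischemia B. At 34 to 457 counts per kidney, these intervals still hold changes of about 2-fold in either direction in ischemia A, so a difference of that size could have been missed with this spread between kidneys.

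Of the breakdown genes, Sat1 (spermidine/spermine acetyltransferase, chrX:155213132-155216449, minus strand) measured 95, 102.7, 136.2 and 102.0 CPM in controls. Ischemia A measured 96.6, 142.4, 113.2 and 158.6 CPM. Ischemia B measured 144.3, 147.1, 150.6 and 133.8 CPM. In ischemia B, 3 of 4 kidneys lay above every control and the fourth lay just below control replicate 3. The log2 fold change was 0.23 (SE 0.17, interval -0.12 to 0.57, edgeR adjusted p = 0.406) in ischemia A and 0.40 (SE 0.17, interval 0.06 to 0.75, adjusted p = 0.0923, unadjusted p = 0.0253) in ischemia B. The exact permutation p in ischemia B was 0.0571. Sat1 in ischemia B passed the threshold when control replicate 3 was left out (log2 fold change 0.51, edgeR adjusted p = 0.0435).

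Smox (spermine oxidase, chr2:131491496-131525922, plus strand) had the largest fitted rise against control. In controls it measured 6.04, 3.56, 14.0 and 7.44 CPM. Ischemia A measured 72.8, 45.6, 73.5 and 68.9 CPM. Ischemia B measured 40.6, 43.0, 38.8 and 86.5 CPM. Every ischemic kidney lay above every control, the lowest of them at 38.8 CPM against the highest control at 14.0 CPM. Smox was 8.42-fold higher in ischemia A (log2 fold change 3.07, SE 0.37, interval 2.31 to 3.84, edgeR adjusted p = 2.88e-06) and 6.74-fold higher in ischemia B (2.75, SE 0.36, interval 2.0 to 3.51, adjusted p = 1.01e-05). The exact permutation p was 0.0286 in both ischemia groups. Over the alternatives the log2 fold change lay between 2.84 and 3.51 in ischemia A and between 2.40 and 3.18 in ischemia B, past the threshold each time.

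Of the markers that rose alongside Smox, 5 of 6 genes of tubular injury were higher in each ischemia group, with a summed level of 216 to 264 CPM in controls, 1986 to 2229 CPM in ischemia A and 1487 to 1698 CPM in ischemia B. That sum was mostly Krt8, an epithelial keratin (235 ± 21.1 CPM in controls, 1918 ± 144 CPM in ischemia A and 1420 ± 77.1 CPM in ischemia B), and Havcr1, Lcn2 and Krt20 had at most 5 counts in any control. Among markers of fibroblasts and smooth muscle, 3 of 4 tested were higher in each ischemia group (medians 1.95 and 1.73, with 519 to 707 CPM summed in controls, 1382 to 3679 CPM in ischemia A and 1647 to 3099 CPM in ischemia B). Macrophage and myeloid markers were summed at 44.4 to 68.1 CPM in controls, 14.2 to 37.0 CPM in ischemia A and 14.8 to 43.3 CPM in ischemia B. These sums lay below the controls, although the median log2 fold change of the 6 tested was positive (0.87 and 1.23), with 1 higher and 1 lower in each ischemia group. The sums of the controls were mostly Csf1r, which measured 52.1 ± 9.05 CPM in controls, 13.5 ± 5.25 CPM in ischemia A and 10.5 ± 6.53 CPM in ischemia B. Without Csf1r, a choice made after the values were seen, the sums were 3.79 to 7.18 CPM in controls, 6.25 to 19.1 CPM in ischemia A and 5.38 to 23.8 CPM in ischemia B. S100a8 and Ly6c2 of that list were at 0. The part of these cells in the result for Smox was not tested.

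Paox (acetylpolyamine oxidase, chr7:140115799-140137224, plus strand) was close to the floor. The controls had 0, 99, 27 and 22 counts, or 0, 2.57, 1.04 and 0.575 CPM. All 4 ischemia A kidneys had 0 counts, and ischemia B had 0, 0, 11 and 0 counts. With a floor of 3 counts per library, the mean of ischemia A was at least 8.88-fold lower than that of the controls. That bound rests on control replicate 2, without which it was at least 4.57-fold, a value computed after the data were seen. Neither comparison passed (edgeR adjusted p = 0.0868 in ischemia A and 0.517 in ischemia B, exact permutation p = 0.143 in each), and control replicate 1 was itself at 0. Paox entered the test through the counts of 3 controls and 1 ischemia B kidney, so the filter bears on its direction, above all against ischemia A. Exons of Echs1 overlap Paox on the other strand, which makes its low counts uncertain. Echs1 had a log2 fold change of -2.27 in ischemia A (edgeR adjusted p = 0.000442).

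**Figure D2:**
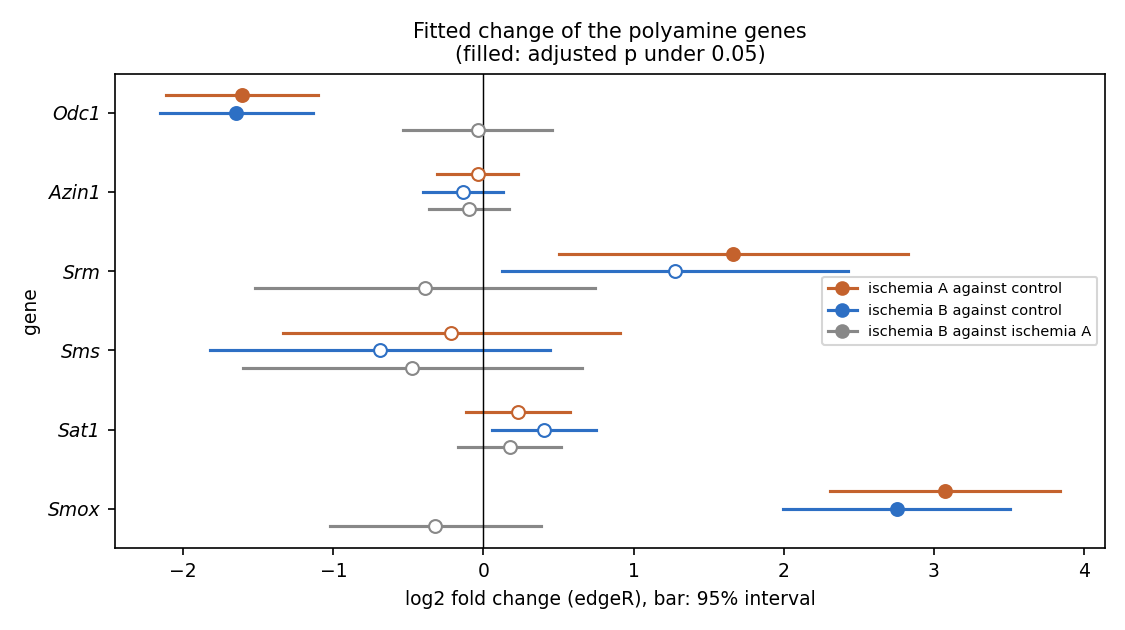
Fitted log2 fold change (horizontal axis) of 6 polyamine genes in the 3 comparisons, with 95% intervals and filled points for an adjusted p under 0.05 in edgeR. Odc1 lay at -1.61 and -1.65 and Smox at 3.07 and 2.75 against control, and every interval for ischemia B against ischemia A included 0 (Paox, with no count in ischemia A, is not drawn).

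Counted over the tested members, 2 of 7 (Smox and Srm) were higher in ischemia A, where 10.5% of all genes tested were, and 1 of 7 (Odc1) was lower, where 11.7% were. In ischemia B, 1 of 7 (Smox) was higher and 1 of 7 (Odc1) lower, where 10.9% and 11.9% of all genes tested were. With so few members, these shares cannot be set apart from the background. The median log2 fold change of the members was -0.04 in ischemia A and -0.13 in ischemia B, beside -0.02 over all genes. Both ischemia groups were compared with the same 4 controls, so their values are not independent of each other.

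Between the ischemia groups, 0 of 7 members passed, where 0.00857% of all genes tested did. The adjusted p was 1.0 for each of the 7 in edgeR's test, and no member had an unadjusted p under 0.05, the smallest being 0.0792 for Paox. The log2 fold change of ischemia B against ischemia A was -0.04 (interval -0.53 to 0.46) for Odc1 and -0.32 (interval -1.03 to 0.38) for Smox. For Azin1 it was -0.09 (interval -0.36 to 0.17), for Sat1 0.17 (interval -0.17 to 0.52) and for Sms -0.47 (interval -1.60 to 0.66). These intervals bound a difference of Azin1 or Sat1 closely and one of Srm or Sms only loosely, and none of them shows that the ischemia groups were alike.

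The order of the genes can be read per length of annotated exon, as CPM per kb. In controls the means were 298 for Odc1, 41.1 for Azin1, 39.3 for Sat1, 2.29 for Srm, 1.99 for Smox, 1.63 for Sms and 0.213 for Paox. Azin1 and Sat1 overlapped in range, as did Srm, Smox and Sms. In ischemia A the means were 97.9 for Odc1, 46.0 for Sat1, 40.0 for Azin1, 16.7 for Smox, 7.28 for Srm and 1.40 for Sms. In ischemia B they were 95.3, 51.9, 37.4, 13.4, 5.57 and 1.01 CPM per kb in the same order. Sat1 and Azin1 overlapped in ischemia A and not in ischemia B. Smox stood above Srm and Sms without overlap in both ischemia groups, whereas in controls these genes could not be ranked. Among the genes with counts, Odc1 kept the highest level in all 3 groups.

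The balance of breakdown to synthesis was described by Sat1 to Odc1 within each kidney, without a test. Odc1 is the denominator of this ratio and of the others below, so its lower level enters each of them. Sat1 and Azin1 did not pass the test against control, so the shifts of their ratios mostly restate the result for Odc1. Srm and Paox are not part of any ratio. The ratios are of CPM and not corrected for length, so what they show is the shift between groups. The log2 ratio of Sat1 to Odc1 was -3.16 ± 0.49 (SD, n = 4, range -3.69 to -2.50) in controls, -1.39 ± 0.53 (range -1.97 to -0.70) in ischemia A and -1.11 ± 0.45 (range -1.48 to -0.49) in ischemia B. The ischemic kidneys did not overlap the controls. The other ratios were chosen after their values were seen. The log2 ratio of Azin1 to Odc1 was -1.91 ± 0.47 in controls, -0.40 ± 0.42 in ischemia A and -0.41 ± 0.53 in ischemia B, and that of Smox to Odc1 was -7.13 ± 0.83, -2.36 ± 0.49 and -2.66 ± 1.03. For Oaz2 to Odc1 it was -1.87 ± 0.44, -1.11 ± 0.41 and -1.12 ± 0.48, and here both ischemia groups overlapped the controls. A ratio of Azin1 to Oaz1 could not be formed because Oaz1 is listed at 0.

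**Figure D3:**
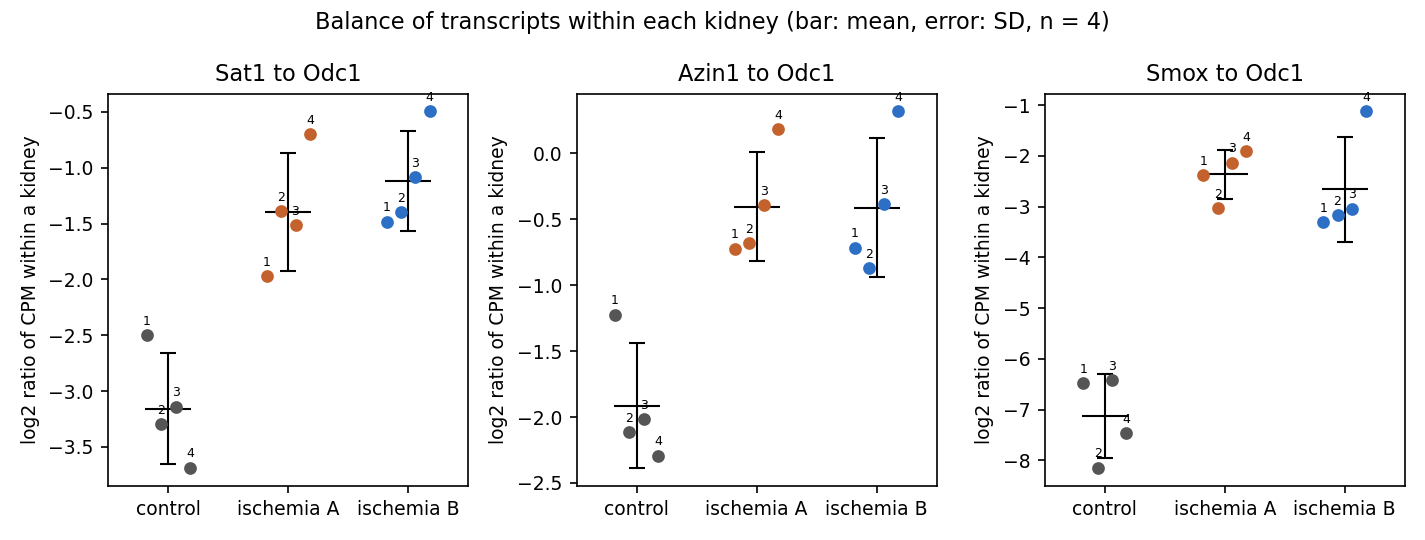
Log2 ratio of CPM within a kidney (vertical axes) of Sat1, Azin1 and Smox to Odc1 in 12 kidneys, with the mean and SD of 4 per group. In each panel all 8 ischemic kidneys lie above all 4 controls, with group means for Sat1 to Odc1 of -3.16, -1.39 and -1.11. Odc1, itself lower after ischemia, is the denominator in every panel.

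The neighbouring reactions were read from lists of 44 genes, of which 43 were in the table and 31 were tested. Of the 31, 3 were higher in both ischemia groups and 8 were lower in both, where 9.07% and 9.49% of all genes tested were. None passed the test between the ischemia groups. The genes that were higher were Myc, Slc7a1 and Eif5a. Those that were lower were Gatm, Slc22a2, Abat, Ahcy, Aldh9a1, Slc47a1, Mat2a and Oaz2.

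Of 2 tested genes of ornithine supply and other uses of arginine, 0 were higher and 1 was lower in each ischemia group (median log2 fold change -2.23 in ischemia A and -1.66 in ischemia B). Gatm, which uses arginine for creatine synthesis and releases ornithine, fell from 1183 ± 158 CPM in controls to 63.3 ± 12.7 CPM in ischemia A and 113 ± 54.0 CPM in ischemia B. Its log2 fold changes were -4.22 (SE 0.29, edgeR adjusted p = 2.06e-09) and -3.39 (SE 0.27, adjusted p = 2.08e-08).

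Of 8 tested genes of the methionine cycle and methylthioadenosine salvage, 0 were higher and 2 lower in each ischemia group (medians -0.01 and 0.06). Mat2a, which makes S-adenosylmethionine, fell from 325 ± 15.8 CPM to 129 ± 29.6 CPM in ischemia A and 135 ± 12 CPM in ischemia B, with log2 fold changes of -1.34 (SE 0.15) and -1.27 (SE 0.15). Ahcy, which clears S-adenosylhomocysteine, had log2 fold changes of -1.89 (SE 0.27) and -2.0 (SE 0.27). All 4 edgeR adjusted p were at most 2.51e-05.

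Of 3 tested genes of hypusination, the modification of the translation factor eIF5A that uses spermidine, 1 was higher in each ischemia group (medians 1.12 and 0.60). Eif5a itself rose from 5919 ± 542 CPM to 7914 ± 644 CPM in ischemia A and 8110 ± 1373 CPM in ischemia B, log2 fold changes of 0.42 (SE 0.11, edgeR adjusted p = 0.00966) and 0.45 (SE 0.11, adjusted p = 0.00529). This was the smallest change among the 11 genes.

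Of 8 tested transporters of polyamines and their precursors, 1 was higher and 2 were lower in each ischemia group (medians -0.45 and -0.37). Slc7a1, a carrier of arginine and ornithine, was 3.79-fold higher in ischemia A (edgeR adjusted p = 0.0242) and 3.98-fold higher in ischemia B (adjusted p = 0.0199). Slc22a2 and Slc47a1, organic cation carriers of the tubule, were lower, with log2 fold changes of -3.34 and -1.93 in ischemia A and -3.11 and -1.66 in ischemia B. Of 4 tested genes of further breakdown, 2 were lower in each ischemia group and 0 higher (medians -1.80 and -1.52). These were Abat, which degrades 4-aminobutyrate, at -3.39 and -2.94, and Aldh9a1, which oxidises aminoaldehydes, at -2.02 and -1.74.

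Of 4 tested genes of the Myc family, which are known regulators of Odc1, 1 was higher in each ischemia group (medians 0.25 and 0.91). Myc rose from 4.96 ± 1.91 CPM in controls to 58.2 ± 7.35 CPM in ischemia A and 50.1 ± 10.1 CPM in ischemia B, log2 fold changes of 3.56 (SE 0.29, edgeR adjusted p = 2.00e-08) and 3.35 (SE 0.29, adjusted p = 4.16e-08). In the same kidneys Odc1 was lower, and a link between Myc and Odc1 was not tested. Of the 2 tested paralogs of the members, Oaz2 was lower as given above and Sat2 did not pass (medians of the list -1.09 and -1.85). Sat2 was low, with means of 2.27 CPM in controls, 0.864 CPM in ischemia A and 0.319 CPM in ischemia B.

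**Figure D4:**
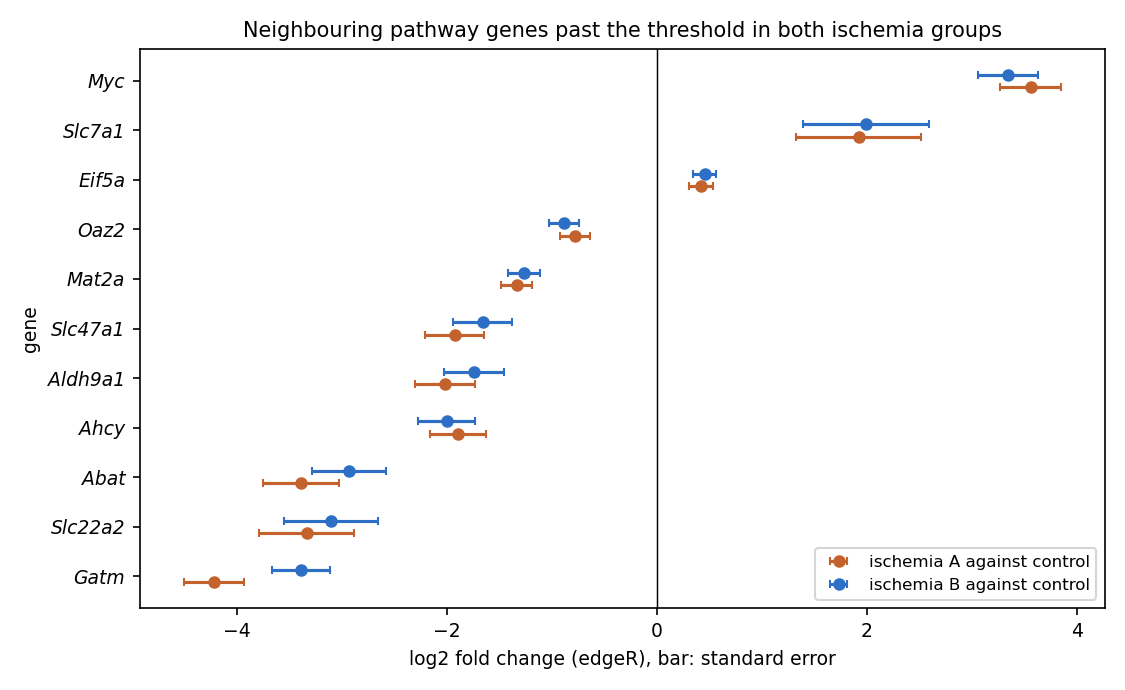
Log2 fold change from edgeR (horizontal axis, bars are standard errors) of the 11 genes of the neighbouring reactions that passed the threshold in both ischemia groups. Myc, Slc7a1 and Eif5a lie above 0 and the other 8 genes below, down to Gatm at -4.22 in ischemia A and -3.39 in ischemia B.

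The genes closest in profile to 4 members were found over the 12 kidneys, by the root mean square difference of log2 CPM after centring each gene on its control mean, among 9356 candidates. For Odc1 they were Pi4ka (0.25), Gramd1b (0.28) and Tspan3 (0.28). For Smox they were Tubb2b (0.49), Nfkbiz (0.50) and Klf6 (0.50), and for Srm they were Eif6 (0.52), Slc16a6 (0.52) and Camk2n2 (0.53). For Paox the nearest, Mvd, was at 1.02, so no gene followed its sparse counts closely. Pi4ka had log2 fold changes of -1.53 and -1.54 against control, and Tubb2b had 3.29 and 3.43.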

How the data were processed

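RNA of 12 kidneys was measured by single-read sequencing of stranded mRNA libraries. STAR (alignment to mm10) and HTSeq (counting per gene) are the tools of the authors, and the deposited values are raw counts without normalization. Versions, annotation release, strand setting and the treatment of reads with several matches are not given in the sources used here. Replicates are described as separate mice, and no pair of libraries within a group was a duplicate (smallest chi-square over its degrees of freedom, 48.9).

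Counts were analysed with edgeR 4.0.16 (R 4.3.3): default low-count filter (minimum count 10, minimum total 15), TMM, 1 model with 3 groups over all 12 kidneys, two-sided quasi-likelihood F-tests and Benjamini-Hochberg adjustment over 11664 genes at a threshold of 0.05. Intervals are at 95%. The procedure was tested on simulated data. A count of 3 was taken as the floor, for counting error only. Exon lengths and positions came from GENCODE M21 (GRCm38) and promoters from RefSeq. Alternatives were RLE size factors, no filter, DESeq2 1.42.0, limma-trend (limma 3.58.1), a fit restricted to the compared pair of groups, a replicate block and leaving out each kidney.

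All 9 members are named. Of the pathway lists, genes past the threshold in both ischemia groups are named, and of the marker lists counts are given with medians or summed CPM. No median is given for the markers of tubular injury, of lymphocytes, and of red cells, fat and adrenal tissue, which include genes at or near 0 in a group. Some medians that are given, such as those of the myeloid markers and the paralogs, also rest in part on such genes. The nearest profiles are of the 4 members with the largest mean change, among genes whose mean log2 CPM was 1 or more. Some listed genes are not reported here. Members and lists were chosen with earlier results of these data known.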

Additional observations from a re-analysis of the deposited data

Results flagged for a closer look

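In a group of 4 kidneys, a value was listed when it stood apart from its neighbours by more than Dixon's critical share of the range. This holds by chance in about 1 in 20 groups, and it held in 4 of the 20 groups examined. For Srm, control replicate 1 was the lowest at 0.959 CPM, against 4.34 to 4.94 CPM in the other controls. For Smox, ischemia A replicate 2 was the lowest at 45.6 CPM, against 68.9 to 73.5 CPM, and ischemia B replicate 4 was the highest at 86.5 CPM, against 38.8 to 43.0 CPM. For Paox, ischemia B replicate 3 was the highest at 0.532 CPM, the other 3 kidneys being at 0, so that any count in 1 kidney would have stood apart and the chance rate does not hold for this group. Leaving out any of these kidneys kept Smox past the threshold in both comparisons with the controls. No member passed the test between ischemia A and ischemia B.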

How the results depend on the processing

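Under the 18 alternatives, Odc1 and Smox kept their direction and call in both ischemia groups. Of the members tested, 2 to 3 passed in each ischemia group and 0 between the ischemia groups. Srm in ischemia A failed in 7 alternatives, 6 of them left-out kidneys and the other the replicate block (log2 fold change 1.68, adjusted p = 0.0666). Kidneys with the same replicate number were not alike across genes beyond their groups (correlations from -0.06 to 0.05, 0 of 12 pairs over 0.1). This cannot show whether kidneys came from the same animal. The block changed no other member's call. The number of genes called between the ischemia groups, 1 in the main analysis, was 6 without the filter, 27 with DESeq2, 0 with limma-trend, 0 with a fit of only the 2 groups and 0 to 7 when a kidney was left out. With a kidney left out, the log2 fold change against control in ischemia A ranged from -0.14 to 0.027 for Azin1 and from -0.62 to 0.018 for Sms, and Odc1 in ischemia B against ischemia A from -0.16 to 0.15. Paox has no value in ischemia B against ischemia A without ischemia B replicate 3, all kidneys being at 0, nor with ischemia A in a fit of only the 2 groups. The intervals of Srm and Sms were the widest of the members given with one, and fewer kidneys were tested in the left-out fits.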

Other observations

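The remaining marker lists, with the medians of that for other tubule segments, moved as follows. Of 6 markers of other tubule segments, 3 were lower in ischemia A and 2 in ischemia B (medians -0.63 and -0.41). The 1 tested lymphocyte marker was lower in both ischemia groups, with at most 4.73 CPM in a control and 0 in all ischemic kidneys, and the other 5 markers of that list were at 0 in every kidney. None of 4 tested endothelial markers passed (medians -0.08 and -0.17), and 2 of 4 podocyte markers were higher in each ischemia group (medians 0.69 and 0.73). Of 2 tested markers of red cells, fat and adrenal tissue, 1 was lower in ischemia A and 2 in ischemia B (56.9 to 122.8 CPM summed in controls, 27.0 to 48.5 CPM in ischemia A and 16.2 to 31.7 CPM in ischemia B), and 5 of the 8 were at 0 in every kidney.

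Per length of exon, Odc1 stood at percentile 99.1 of the genes tested in controls, 96.6 in ischemia A and 96.4 in ischemia B. Smox stood at 43.9, 81.3 and 78.1, and Srm at 46.3, 68.0 and 62.8. Azin1 (90.6, 91.1 and 90.7) and Sat1 (90.1, 92.2 and 93.4) held nearly the same place, and Sms stood at 40.3, 38 and 32.6.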
